A study of Mus musculus with 15 samples.

Results

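The 10 circadian clock genes described here were the activators Arntl and Clock, the repressors Per1, Per2, Per3 and Cry1, the nuclear receptors Nr1d1 and Nr1d2, and the output factors Dbp and Tef. They were found by matching the Ensembl identifiers of the count tables to mouse symbols, and were followed in 15 libraries of mouse ileum, the final stretch of the small intestine. All 10 were among the 37620 identifiers listed, and all 10 passed the filter on low counts in every comparison. The lowest count of a member in any library was 42 reads, for Dbp.

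The ileum came from adult mice that had been given tamoxifen (10 mg) by gavage in 2 rounds on each dosing day, on alternate days over 5 days. One cohort was taken 8 days after tamoxifen, with 3 controls of genotype Rfx6f/f and 4 animals of genotype Rfx6f/f Vilin-CreERT2. The other was taken 3 months after tamoxifen, with 2 Rfx6f/f controls, 2 Rfx6f/+ controls and 4 Rfx6f/f Vilin-CreERT2 animals. Controls of both cohorts thus carried at least 1 loxP-flanked Rfx6 allele and received tamoxifen, but no Cre. The CreERT2 recombinase is driven by the promoter of Villin, a gene of the gut epithelium, while the RNA came from ileum that also holds muscle, nerve and immune cells. The labels give no hour of harvest, light schedule, feeding state or age beyond adult. Cohort, time after tamoxifen, age and handling therefore cannot be told apart. In bulk RNA, fewer cells of a type and less RNA per cell cannot be told apart either. Nothing in the labels says how the animals were bred or housed together, so the p-values measure the spread between these libraries.

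Most cells keep daily time with a loop of transcription factors. CLOCK and ARNTL (also named BMAL1) bind E-box sequences and switch on the Per and Cry genes, whose proteins then repress CLOCK and ARNTL. In a second loop, NR1D1 and NR1D2 (also named REV-ERB alpha and beta) repress Arntl, so that Nr1d1 and Arntl transcripts peak at opposite times of day. DBP and TEF are D-box binding factors that pass the rhythm on to output genes. In the intestine the clock sets rhythms of absorption, cell division and motility, and meal times shift its phase.

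The sequences below are 1 promoter each of 4 members that differed between the cohorts and held the letters of an E-box, an E′-box or a D-box, shown because these elements define the branches of the loop. They are the 250 bases upstream of a transcript start, from RefSeq on build GRCm38.p6, written 5′ to 3′ on the strand of the gene, with matches in capitals. Per3 lies on the minus strand at chr4:151044666-151044915, and its capitals mark a pair of D-boxes that begin 205 and 158 bases before the start.
Per3: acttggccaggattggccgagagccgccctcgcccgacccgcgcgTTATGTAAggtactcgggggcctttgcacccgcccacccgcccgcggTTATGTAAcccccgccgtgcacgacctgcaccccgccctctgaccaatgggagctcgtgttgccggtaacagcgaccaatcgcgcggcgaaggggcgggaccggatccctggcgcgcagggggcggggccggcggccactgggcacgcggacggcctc
Cry1 lies on the minus strand at chr10:85185055-85185304, and its capitals mark an E′-box read on the opposite strand and an E-box, 79 and 60 bases before the start.
Cry1: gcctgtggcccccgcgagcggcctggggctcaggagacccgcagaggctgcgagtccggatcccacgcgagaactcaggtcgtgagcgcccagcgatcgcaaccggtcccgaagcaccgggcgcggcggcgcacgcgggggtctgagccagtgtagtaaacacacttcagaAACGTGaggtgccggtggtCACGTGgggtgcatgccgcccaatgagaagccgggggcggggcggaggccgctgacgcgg
Nr1d1 lies on the minus strand at chr11:98775378-98775627, and its capitals mark an E′-box read on the opposite strand, 28 bases before the start.
Nr1d1: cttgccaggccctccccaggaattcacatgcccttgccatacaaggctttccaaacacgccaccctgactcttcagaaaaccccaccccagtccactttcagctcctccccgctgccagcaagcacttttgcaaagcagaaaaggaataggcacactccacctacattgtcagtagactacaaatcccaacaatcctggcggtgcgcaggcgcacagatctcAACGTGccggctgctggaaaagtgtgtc
The first Tef start lies on the plus strand, with its promoter at chr15:81802423-81802672, and the capitals mark an E-box 127 bases before the start. A second Tef start, not printed, has an E-box 138 bases before it.
Tef: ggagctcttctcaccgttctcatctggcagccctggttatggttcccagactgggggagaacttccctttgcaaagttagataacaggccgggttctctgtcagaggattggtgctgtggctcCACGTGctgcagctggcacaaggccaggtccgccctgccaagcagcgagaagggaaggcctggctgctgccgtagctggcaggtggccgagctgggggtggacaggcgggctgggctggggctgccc

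Of the 10 members, 9 matched the RefSeq table, with 14 promoters. Per2 did not match. The E-box letters CACGTG were in 4 of these 14 promoters, in 3 of the 9 members (Per1, Cry1 and Tef), against 6.02% of 32851 mouse promoters of the same length. The E′-box letters CACGTT were in 2 promoters (Cry1 and Nr1d1), against 3.85%. The D-box letters TTATGTAA or TTACGTAA were in 1 promoter (Per3), against 0.931%. The cyclic AMP response element TGACGTCA (1.55% of promoters) and the ROR response element (0.332%) were in none of the 14. Both strands were searched. A match describes letters only, and a missing match says only that these letters are not in this window.

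Library totals ran from 30452485 to 54468586 counts at 8 days and from 26078462 to 36270306 at 3 months. Rfx6 counts over the whole gene did not fall in mutant-labelled ileum. The log2 fold change was 0.19 (SE 0.18) at 8 days and 0.72 (SE 0.17) at 3 months (edgeR quasi-likelihood adjusted p 0.867 and 0.0347). The gene had 38 to 106 reads per library. Its exons were not examined singly, so its deletion was not tested, and the groups are named by their labels. The ileal enterocyte markers Vil1, Fabp6, Slc10a2, Alpi and Fabp2 were counted in every library. The pancreas markers Cela1, Cpa1, Prss2 and Amy2a5 summed to 3.56 to 86.4 counts per 1000000 (CPM) at 8 days and 15 to 564 CPM at 3 months, highest in control replicate 4 of 3 months, and 3 of these 4 genes were at 0 in some libraries. Replicate 1 of the libraries labelled mutant at 3 months stood apart in Nr1d1 and Nr1d2.

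Among the members the 2 cohorts differed most in Nr1d1, the nuclear receptor gene whose product represses Arntl. Nr1d1 (ENSMUSG00000020889) stood at 56.6, 29.7 and 48.0 CPM in the 8-day controls, and at 63.1, 65.3, 66.1 and 37.1 CPM in the 8-day libraries labelled mutant. The 3-month controls had 2.54, 3.92, 6.06 and 3.52 CPM, and the libraries labelled mutant of that time 20.5, 2.50, 4.97 and 4.55 CPM. Every 3-month library was below every 8-day library, and the median of the 8-day cohort was 13.4-fold that of the 3-month cohort. The order of group means was mutant at 8 days (57.9 ± 13.9, SD, n = 4), control at 8 days (44.8 ± 13.7, SD, n = 3), mutant at 3 months (8.13 ± 8.31, SD, n = 4) and control at 3 months (4.01 ± 1.48, SD, n = 4), with overlap between the groups of each cohort. In controls the log2 fold change of 3 months over 8 days was -3.46 (SE 0.56, edgeR quasi-likelihood adjusted p 0.000245). In the libraries labelled mutant it was -2.82 (SE 0.51, edgeR quasi-likelihood adjusted p 0.000766), and -3.84 without replicate 1 of 3 months. Changes at least as large were seen in 0.774% of all genes tested in controls and in 0.891% in the libraries labelled mutant.

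Nr1d2 (ENSMUSG00000021775), the paralogue of Nr1d1, stood at 58.3, 53.5 and 59.8 CPM in the 8-day controls, and at 68.4, 93.0, 63.7 and 55.2 CPM in the 8-day libraries labelled mutant. In the later cohort the controls had 22.9, 27.2, 29.8 and 27.5 CPM, against 62.9, 22.8, 23.7 and 28.2 CPM where labelled mutant. The cohorts overlapped through replicate 1 of the 3-month libraries labelled mutant alone, and the other 7 libraries of 3 months lay between 22.8 and 29.8 CPM. The log2 fold change of 3 months over 8 days was -1.06 (SE 0.29) in controls and -1.02 (SE 0.27) in the libraries labelled mutant (edgeR quasi-likelihood adjusted p 0.00824 and 0.00894). Without that replicate the second value was -1.49.

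The output factors were also lower at 3 months. Dbp (ENSMUSG00000059824) stood at 9.80, 5.62 and 12.4 CPM in the 8-day controls, and at 9.74, 18.2, 12.1 and 6.97 CPM in the 8-day libraries labelled mutant. The 3-month controls had 1.76, 2.20, 1.84 and 2.16 CPM, and the libraries labelled mutant of that time 2.90, 1.38, 1.10 and 2.33 CPM. The cohorts did not overlap, and the 8-day median was 4.90-fold the 3-month median. The log2 fold change was -2.19 (SE 0.36) in controls and -2.61 (SE 0.35) in the libraries labelled mutant (edgeR quasi-likelihood adjusted p 0.000275 and 7.97e-05). By group mean the order was mutant at 8 days (11.7 ± 4.77, SD, n = 4), control at 8 days (9.29 ± 3.45, SD, n = 3), control at 3 months (1.99 ± 0.221, SD, n = 4) and mutant at 3 months (1.93 ± 0.834, SD, n = 4), and groups of the same cohort overlapped.

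Tef (ENSMUSG00000022389), which binds the same D-box, stood at 47.1, 39.6 and 54.97 CPM in the 8-day controls, and at 44.4, 81.0, 53.5 and 43.6 CPM in the 8-day libraries labelled mutant. In the later cohort the controls had 17.7, 16.7, 17.4 and 24.4 CPM, against 32.0, 19.1, 12.3 and 19.0 CPM where labelled mutant. The cohorts did not overlap, and mutant replicate 1 of 3 months was the highest of its cohort. Tef fell by 1.28 on the log2 scale in controls (SE 0.28) and by 1.43 in the libraries labelled mutant (SE 0.26, edgeR quasi-likelihood adjusted p 0.00195 and 0.000786). On the annotation used for names, 18.0% of the exonic bases of Dbp lie opposite exons of Sphk2, and 8.55% of those of Nr1d1 lie opposite exons of Thra. Among genes named further on, this holds for 19.4% of the exonic bases of Txnip (opposite Gm15441) and 19% of those of Bhlhe41 (opposite Gm43909). The strand handling of the counts is not given in the sources used here, so reads of these stretches cannot be told apart.

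**Figure D1:**
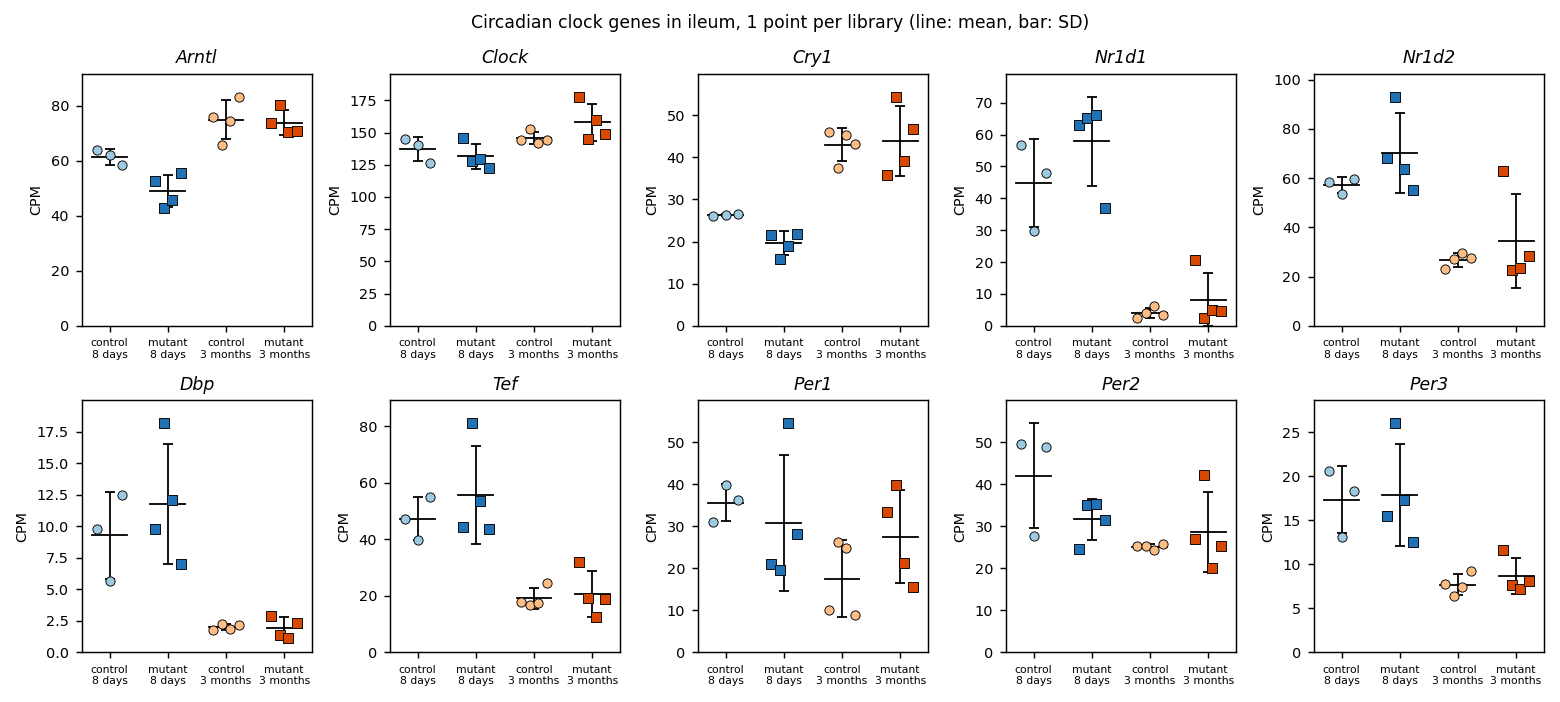
CPM of the 10 clock genes by group (circles: control, squares: libraries labelled mutant, blue: 8 days, orange: 3 months), 1 point per library, with the mean as a line and the SD as a bar that stops at 0. For Nr1d1, Dbp, Tef and Per3 all 8 libraries of 3 months lie below all 7 of 8 days, and for Arntl and Cry1 all lie above.

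The Per genes, which encode the repressors that accumulate after CLOCK and ARNTL have acted, were not called alike between the cohorts, and Per3 alone of the 3 passed in controls and in the libraries labelled mutant. Their values were not tested against each other. Per3 (ENSMUSG00000028957) stood at 20.6, 13.1 and 18.4 CPM in the 8-day controls, and at 15.6, 26.04, 17.4 and 12.6 CPM in the 8-day libraries labelled mutant. The 3-month controls had 7.75, 6.42, 7.37 and 9.20 CPM, and the libraries labelled mutant of that time 11.6, 7.63, 7.19 and 8.13 CPM. The cohorts did not overlap. Per3 fell by 1.15 on the log2 scale in controls (SE 0.24) and by 1.04 in the libraries labelled mutant (SE 0.22, edgeR quasi-likelihood adjusted p 0.00144 and 0.00219).

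Per2 (ENSMUSG00000055866) stood at 49.5, 27.7 and 48.9 CPM in the 8-day controls, and at 24.6, 35.0, 35.3 and 31.5 CPM in the 8-day libraries labelled mutant. After 3 months the values were 25.3, 25.2, 24.4 and 25.6 CPM in controls, and 27.0, 42.1, 19.9 and 25.2 CPM where labelled mutant. The 3-month controls lay closest together of all groups of this gene (25.1 ± 0.515, SD, n = 4), and the cohorts overlapped. Per2 fell by 0.71 on the log2 scale in controls (SE 0.23, edgeR quasi-likelihood adjusted p 0.0201). That call was lost without control replicate 1 of 8 days (-0.59, adjusted p 0.0829) or replicate 3 (-0.60, adjusted p 0.0884). In the libraries labelled mutant the value was -0.14 (SE 0.21, edgeR quasi-likelihood adjusted p 0.639), and 0.0252 without mutant replicate 3 of 3 months.

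Per1 (ENSMUSG00000020893), which also responds quickly to glucocorticoids, varied widely between libraries of the same group. It stood at 30.9, 39.7 and 36.1 CPM in the 8-day controls, and at 20.9, 19.7, 54.5 and 28.1 CPM in the 8-day libraries labelled mutant. In the later cohort the controls had 10.1, 26.2, 24.7 and 8.93 CPM, against 33.4, 39.7, 21.2 and 15.5 CPM where labelled mutant. The cohorts overlapped, and no cohort difference passed the test: the log2 fold change was -0.99 (SE 0.43) in controls and -0.16 (SE 0.40) in the libraries labelled mutant (edgeR quasi-likelihood adjusted p 0.0746 and 0.787). The value in controls passed without mutant replicate 3 of 8 days (-0.99, adjusted p 0.0453), without control replicate 2 of 3 months (-1.27, adjusted p 0.0418) and with limma-voom (-1.16, adjusted p 0.0416). The value in the libraries labelled mutant turned to 0.28 without mutant replicate 3 of 8 days and to 0.0555 without mutant replicate 4 of 3 months.

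Cry1 and Arntl were higher at 3 months. Cry1 (ENSMUSG00000020038), the strongest repressor of the loop, stood at 26.1, 26.4 and 26.5 CPM in the 8-day controls, and at 21.7, 15.9, 19.0 and 21.9 CPM in the 8-day libraries labelled mutant. The 3-month controls had 46.1, 37.6, 45.3 and 43.1 CPM, and the libraries labelled mutant of that time 35.8, 54.4, 39.0 and 46.6 CPM. Every 3-month library was above every 8-day library, with a 2.02-fold higher median. Cry1 rose by 0.74 on the log2 scale in controls (SE 0.14) and by 1.17 in the libraries labelled mutant (SE 0.13, edgeR quasi-likelihood adjusted p 0.000655 and 1.83e-05).

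Arntl (ENSMUSG00000055116), the partner of CLOCK, stood at 64.0, 62.2 and 58.3 CPM in the 8-day controls, and at 52.5, 42.8, 45.6 and 55.4 CPM in the 8-day libraries labelled mutant. In the later cohort the controls had 76.0, 65.8, 74.5 and 83.2 CPM, against 73.6, 80.3, 70.4 and 71.0 CPM where labelled mutant. The cohorts did not overlap, although the 3-month median was only 1.34-fold the 8-day median. The log2 fold change was 0.31 (SE 0.09) in controls and 0.60 (SE 0.09) in the libraries labelled mutant (edgeR quasi-likelihood adjusted p 0.0142 and 0.000149). In controls the call was lost without control replicate 3 of 8 days (0.27, adjusted p 0.0695) or control replicate 4 of 3 months (0.25, adjusted p 0.056).

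Clock (ENSMUSG00000029238), whose transcript has little rhythm in most organs, stood at 145, 140 and 127 CPM in the 8-day controls, and at 146, 128, 129 and 123 CPM in the 8-day libraries labelled mutant. The 3-month controls had 144, 153, 142 and 144 CPM, and the libraries labelled mutant of that time 178, 145, 160 and 149 CPM. The cohorts overlapped, and the medians differed 1.136-fold. The log2 fold change was 0.12 (SE 0.08) in controls and 0.27 (SE 0.07) in the libraries labelled mutant (edgeR quasi-likelihood adjusted p 0.243 and 0.00899). Whether the cohort difference differed between controls and libraries labelled mutant is the interaction given further on, which passed for no member.

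Counted together, 8 of 10 members passed the cohort test in controls, where 45.1% of 17959 genes passed, and 8 of 10 in the libraries labelled mutant, where 37.8% passed (edgeR quasi-likelihood test). Those lower at 3 months were 6 in controls, against 22.1% of all genes, and 5 in the libraries labelled mutant, against 19.5%. The same 7 members (Arntl, Per3, Cry1, Nr1d1, Nr1d2, Dbp and Tef) passed in both with the same sign, against 27.0% of all genes. Of the 10, 6 did not overlap between the cohorts over all 15 libraries (Arntl, Per3, Cry1, Nr1d1, Dbp and Tef), against 19.0% of all genes. The median size of the members' log2 change was 1.03 in each contrast, against 0.34 and 0.28 over all genes. Clock genes thus moved in a background in which a large share of all genes differed between the cohorts.

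**Figure D2:**
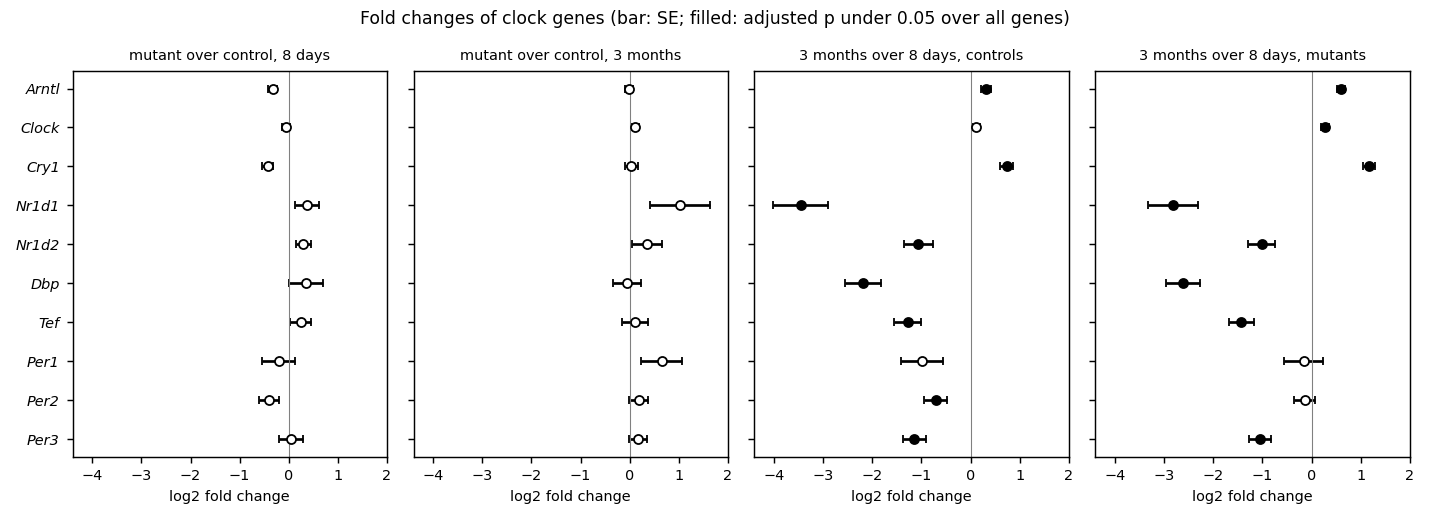
Log2 fold changes of the 10 clock genes with their SE, in the genotype comparison at each time and in the cohort comparison within controls and within libraries labelled mutant; filled points have an adjusted p under 0.05 over all genes. No point is filled in the genotype panels, and 8 are filled in each cohort panel, from -3.46 for Nr1d1 to 1.17 for Cry1.

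Summed levels of cell type markers also differed between the cohorts. The 4 fibroblast markers summed to 1030 to 1260 CPM at 8 days and 561 to 1000 CPM at 3 months, and 4 of 4 passed both cohort tests, 3 lower and 1 higher at 3 months in controls, and 2 lower and 2 higher in the libraries labelled mutant. The 5 smooth muscle markers summed to 1740 to 3270 CPM at 8 days and 1370 to 2680 CPM at 3 months, with 1 of 5 lower in controls and 3 of 5 in the libraries labelled mutant. The 5 ileal enterocyte markers summed to 6430 to 8430 CPM against 4460 to 7970 CPM, with 2 of 5 lower at 3 months in each contrast, and the 3 proliferation markers to 477 to 700 CPM against 677 to 912 CPM, with 2 of 3 higher in each. The 5 immune markers summed to 83 to 92.6 CPM in the 8-day controls and 175 to 284 CPM in the 3-month controls, with 4 of 5 higher at 3 months. In the libraries labelled mutant these sums were 88.8 to 282 CPM and 103 to 200 CPM, with 2 of 5 lower at 3 months. The 4 enteric neuron markers summed to 24.9 to 36.7 CPM at 8 days and 19 to 30.5 CPM at 3 months, with 2 of 4 lower in controls and 1 of 4 called in the libraries labelled mutant. No marker of these lists was at 0 in any library. Their part in the cohort difference of the clock genes was not tested. Total depth also differed, with the ranges given above.

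Differences between members within a library do not depend on how libraries are scaled. The first, the mean log2 CPM of Nr1d1 and Dbp minus that of Arntl and Clock, sets genes of opposite phase against each other. It was -2.03, -2.85 and -1.81 in the 8-day controls and -1.82, -1.10, -1.44 and -2.35 in the 8-day libraries labelled mutant. It was -5.59, -5.07, -4.92 and -5.28 in the 3-month controls and -3.88, -5.82, -5.46 and -4.96 in the 3-month libraries labelled mutant. The cohorts were apart by 1 log2 unit or more in every library, with mutant replicate 1 of 3 months nearest to the 8-day cohort. The cohort means differed by -3.21, by -3.39 without that library, and by -1.89 with Dbp, Nr1d1, Nr1d2, Per3 and Tef set against Arntl, Clock and Npas2. Between genotypes the means differed by 0.55 at 8 days and by 0.19 at 3 months, and both pairs of groups overlapped. With 1 library left out, the 8-day value ran from 0.24 (without control replicate 2) to 0.78. The 3-month value ran from -0.20 (without mutant replicate 1) to 0.45 (without mutant replicate 2), and was 0.0612 without control replicate 1 and 0.0386 with the wider gene set.

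The second difference, Per2 minus Nr1d1 on the log2 CPM scale, uses genes whose transcripts peak a few hours apart. It was -0.19, -0.10 and 0.03 in the 8-day controls and -1.36, -0.90, -0.91 and -0.23 in the 8-day libraries labelled mutant. These groups did not overlap, although the gap between the nearest libraries was smaller than the spread among the libraries labelled mutant. At 3 months it was 3.29, 2.67, 2.001 and 2.84 in the controls, against 0.40, 4.04, 1.99 and 2.45 where labelled mutant. The cohort means differed by 2.98, and the genotype means by -0.76 at 8 days and -0.48 at 3 months. With 1 library left out the latter ran from -1.09 (without mutant replicate 2) to 0.13 (without mutant replicate 1), was -0.28 without control replicate 1, and was -0.18 with Per1 and Per2 set against Nr1d1. No p is given for these differences, since their genes were chosen with the values known.

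**Figure D3:**
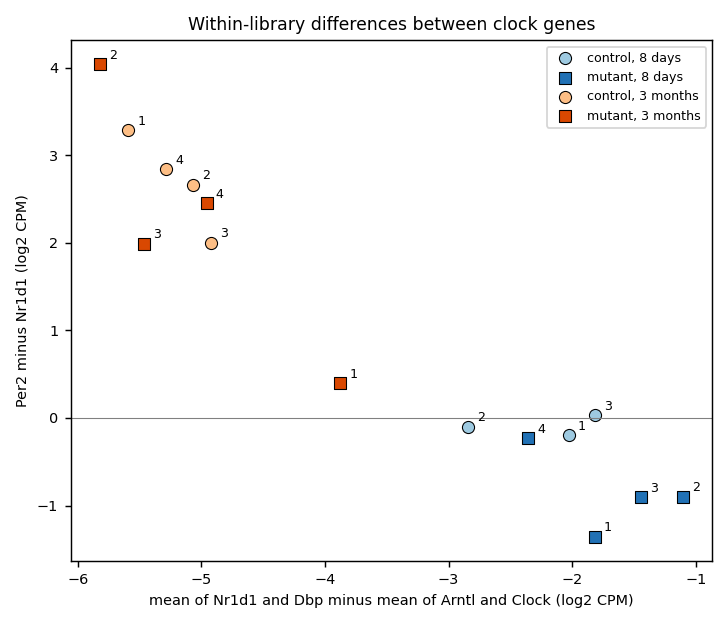
Within-library differences between clock genes, with the mean of Nr1d1 and Dbp minus the mean of Arntl and Clock across and Per2 minus Nr1d1 upwards, both in log2 CPM; numbers are replicates. The 7 libraries of 8 days lie at the lower right and the 8 of 3 months at the upper left, with mutant replicate 1 of 3 months (-3.88, 0.40) between them.

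Between genotypes at 8 days, no member passed. The smallest edgeR quasi-likelihood adjusted p among the 10 was 0.443, against a background of 0.0915% of 17493 genes called. DESeq2 and limma-voom also called 0 members, against 1.02% and 0.0915% of all genes, and 2 members had an unadjusted p under 0.05. The edgeR share was 1.15% without mutant replicate 1. The 2 members were Cry1, with a log2 fold change of -0.43 (SE 0.11, n = 3 and 4, edgeR quasi-likelihood p 0.0043, adjusted 0.443), and Arntl, with -0.33 (SE 0.10, edgeR quasi-likelihood p 0.00829, adjusted 0.46). Both were lower in all 4 libraries labelled mutant than in all 3 controls, and they were the 2 of 10 members whose groups did not overlap, against 7.38% of all genes. Nr1d1, Nr1d2, Dbp and Tef, which stand opposite to them in the cycle, had values of 0.37, 0.30, 0.34 and 0.24. With 1 library left out, Nr1d1 ran from 0.15 (without control replicate 2) to 0.58, Nr1d2 from 0.13 (without mutant replicate 2) to 0.39, Dbp from 0.0482 (without mutant replicate 2) to 0.61 and Tef from -0.001 to 0.35. Values for Per1, Per2, Per3 and Clock were -0.21, -0.41, 0.05 and -0.06. Their ranges with 1 library left out were -0.64 to -0.0418, -0.63 to -0.27, -0.19 to 0.19 and -0.13 to -0.0187. The median size of the members' change was 0.31, against 0.10 over all genes. Of the cell type markers, 5 of 5 immune (median log2 change 0.86) and 5 of 5 smooth muscle (0.33) were higher where labelled mutant. Lower were 4 of 4 enteric neuron, 3 of 3 proliferation, 4 of 5 ileal enterocyte and 3 of 4 fibroblast markers. None of these was called, and their part in the clock gene values was not tested.

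At 3 months no member passed either, against 9.28% of 17085 genes called, a share that ran from 2.25% (without control replicate 3) to 8.77% with 1 library left out. The smallest edgeR quasi-likelihood adjusted p was 0.294, DESeq2 and limma-voom called 0 members, against 17.5% and 9.49% of all genes, and 0 members had an unadjusted p under 0.05. No member's groups were apart, against 19.1% of all genes. The largest value was that of Nr1d1, 1.02 (SE 0.61, n = 4 and 4, edgeR quasi-likelihood adjusted p 0.294), and it was -0.00 without mutant replicate 1. In Nr1d2 the value was 0.36 (SE 0.31) with that library and -0.11 without it. Per1 had 0.65 (SE 0.41, edgeR quasi-likelihood adjusted p 0.323). Its value ran from 0.42 to 0.91 with 1 library left out, and reached 1.525 over all alternatives run. The median size of the members' change was 0.14, against 0.18 over all genes.

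The difference between the genotype effects of both cohorts, tested as an interaction, passed for 0 of 10 members, against 0.785% of 17959 genes, a share that ran from 0.0549% (without control replicate 3 of 8 days) to 4.19% (without mutant replicate 1 of 8 days). The smallest edgeR quasi-likelihood adjusted p was 0.24, DESeq2 and limma-voom called 0 members, against 5.66% and 0.228% of all genes, and 2 members had an unadjusted p under 0.05. These were Cry1, 0.44 (SE 0.18, edgeR quasi-likelihood p 0.0313, adjusted 0.24), and Arntl, 0.29 (SE 0.13, edgeR quasi-likelihood p 0.0403, adjusted 0.272). A p that misses the threshold does not show that the effects were alike. In this contrast 79.2% of genes with a simulated log2 change of 2 were recovered. The largest member value was 0.84 (Per1), and recovery of changes of that size was not simulated.

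The 3-month controls held both genotypes, and Per1 had the largest log2 difference between them among the members. The 2 Rfx6f/f controls stood at 10.1 and 8.93 CPM and the 2 Rfx6f/+ controls at 26.2 and 24.7 CPM, a log2 difference of 1.41 (SE 0.40, edgeR quasi-likelihood p 0.00724, adjusted 0.666). DESeq2 alone called it, with an adjusted p of 0.0495. No other member had an unadjusted p under 0.05, and edgeR called 0% of 17780 genes in this comparison.

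Harvest state was described with a list of 13 genes of fasting, feeding and glucocorticoid response, which includes Per1. Over these genes no genotype difference passed at 8 days (edgeR quasi-likelihood test, smallest adjusted p 0.416, 1 unadjusted p under 0.05). At 3 months 2 of 13 passed, against 9.28% of all genes, both higher in the libraries labelled mutant. The median change was 0.55 against 0.01 over all genes, with 11 values positive and 2 negative. An unadjusted p under 0.05 was seen in 7 of the 13, against 5018 of 17085 genes (edgeR quasi-likelihood test). Fibroblast markers at 3 months summed to 561 to 627 CPM in the controls, against 628 to 1000 CPM where labelled mutant (1 of 4 called, higher), and smooth muscle markers to 1370 to 1670 CPM against 1490 to 2680 CPM (0 of 5 called). Ileal enterocyte markers summed to 6770 to 7970 CPM against 4460 to 6930 CPM (1 of 5 called, Fabp6, lower), and immune markers to 175 to 284 CPM against 103 to 200 CPM (0 of 5 called). Proliferation markers summed to 766 to 912 CPM against 677 to 794 CPM (1 of 3 called, lower), and enteric neuron markers to 19 to 21.3 CPM against 20.4 to 30.5 CPM (0 of 4 called). Their part in this result was not tested. Cpt1a, which admits fatty acids to mitochondria, stood at 153, 179, 161 and 174 CPM in the controls and at 307, 198, 263 and 207 CPM where labelled mutant. Its groups did not overlap. It rose by 0.55 (SE 0.14, edgeR quasi-likelihood adjusted p 0.0408), and 0.42 without mutant replicate 1, where the adjusted p was 0.0603. That call was also lost without each of the 4 controls (adjusted p 0.0589 to 0.105) and without mutant replicate 3 (0.0852). Pdk4, a fasting-induced brake on glucose oxidation, stood at 1.96, 7.12, 5.53 and 3.15 CPM in the controls. Where labelled mutant it stood at 48.5, 8.78, 18.0 and 7.19 CPM. Its groups did not overlap, with 7.12 and 7.19 CPM as the nearest values. Its log2 change of 2.22 (SE 0.65) did not pass (edgeR quasi-likelihood adjusted p 0.0622).

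The library that stood apart in Nr1d1 and Nr1d2 was also the highest of its cohort in several of these genes. Mutant replicate 1 of 3 months had 48.5 CPM of Pdk4, 170 CPM of Angptl4, 844 CPM of Txnip, 597 CPM of Sgk1 and 111 CPM of Fkbp5. The other 3 libraries of its group had 17.8 to 32.8 CPM of Fkbp5, a glucocorticoid-induced chaperone partner. Its Per1 level (33.4 CPM) was within the range of its group. Whether the feeding state of this animal differed was not tested.

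Over the 15 libraries, with the mean of each group removed, Per1 was compared with the other 12 genes of that list. It followed Sgk1, a kinase gene induced by glucocorticoids, with r = 0.79 and rho = 0.77 (100000 permutations within groups, adjusted over the 12 genes p 0.0138 and 0.00672), and r was 0.79 without the 2 libraries farthest from the median. Zbtb16 and Fkbp5, also glucocorticoid-induced, had r = 0.68 and r = 0.63 and did not pass (permutation test, adjusted p 0.163 and 0.18). Among the 3-month controls, the Rfx6f/f animals with little Per1 had 16.5 and 22.3 CPM of Fkbp5 and 3.25 and 2.84 CPM of Zbtb16. The Rfx6f/+ animals had 63.8 and 80.2 CPM of Fkbp5 and 13.8 and 24.9 CPM of Zbtb16. Pancreas markers split these animals in the same way, with 98.5 and 564 CPM in the Rfx6f/f controls and 22.9 and 39.9 CPM in the Rfx6f/+ controls. Control genotype, the amount of pancreas transcript and the order or state of harvest cannot be told apart in 4 animals.

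**Figure D4:**
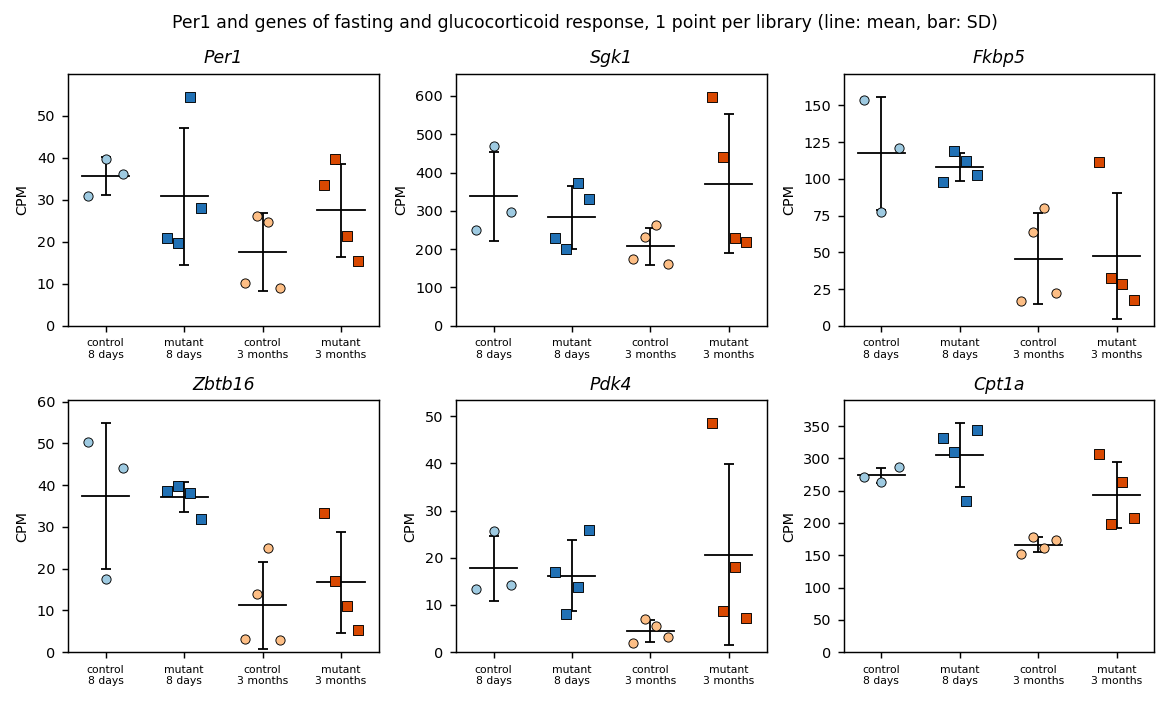
CPM of Per1 and of 5 genes of fasting and glucocorticoid response by group, 1 point per library, with the mean as a line and the SD as a bar that stops at 0. Mutant replicate 1 of 3 months is the highest point of its group for Sgk1, Fkbp5, Zbtb16, Pdk4 and Cpt1a, and the Per1 values of the 3-month controls fall into a low pair (8.93 and 10.1) and a high pair (24.7 and 26.2).

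Between the cohorts, 3 of these 13 genes passed in controls, against 45.1% of all genes, and all 3 were lower at 3 months: Pdk4 by -1.97 (SE 0.61), Cpt1a by -0.69 (SE 0.15) and Zbtb16 by -1.71 (SE 0.67; edgeR quasi-likelihood adjusted p 0.0173, 0.00178 and 0.0495). All 13 values were negative in controls, with a median log2 change of -0.68 against 0.02 over all genes. In the libraries labelled mutant 8 were negative and 5 positive, with a median of -0.16 against -7e-04. Whether harvest state differed between the cohorts was not tested. The Pdk4 call in controls was lost without control replicate 2 of 8 days (-1.61, adjusted p 0.0723). The Zbtb16 call was lost without any of 11 single libraries (adjusted p 0.052 to 0.144) and with robust empirical Bayes (0.0838). In the libraries labelled mutant 1 of 13 passed, against 37.8% of all genes, the peptide transporter gene Slc15a1, lower by 0.77 on the log2 scale (-0.77, SE 0.20, edgeR quasi-likelihood adjusted p 0.00886).

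Of 13 other clock genes, those called between the cohorts went in both directions. In controls 7 passed (edgeR quasi-likelihood test), 5 lower and 2 higher at 3 months, against 45.1% of all genes. In the libraries labelled mutant 7 passed, 6 lower and 1 higher, against 37.8% of all genes. Cry2, the paralogue of Cry1, fell by 1.12 (SE 0.17) and by 1.02 (SE 0.16), while Cry1 rose (edgeR quasi-likelihood adjusted p 0.000159 and 0.000271 for Cry2). Hlf, the D-box factor related to Dbp and Tef, fell by 1.29 (SE 0.22) and by 0.95 (SE 0.21, edgeR quasi-likelihood adjusted p 0.000357 and 0.00256). Nfil3, which represses through the same D-box, rose by 0.87 (SE 0.17) and by 0.89 (SE 0.15, edgeR quasi-likelihood adjusted p 0.000944 and 0.000551). Npas2, which can stand in for Clock, fell by 0.84 in controls and by 0.37 in the libraries labelled mutant (edgeR quasi-likelihood adjusted p 0.000289 and 0.0371), the second call lost without any of 7 single libraries (adjusted p 0.055 to 0.123). The kinase gene Csnk1d fell by 0.21 and by 0.18 (edgeR quasi-likelihood adjusted p 0.00716 and 0.0115), the second call lost without mutant replicate 4 of 8 days or mutant replicate 3 or 4 of 3 months (adjusted p 0.0517 to 0.0579). Bhlhe41, an E-box repressor, passed in both contrasts with opposite signs, 0.82 (SE 0.31) in controls and -1.09 (SE 0.28) in the libraries labelled mutant (edgeR quasi-likelihood adjusted p 0.041 and 0.00747). The control call was lost with no filter (adjusted p 0.0517) and without any of 6 single libraries (0.0579 to 0.166). Its paralogue Bhlhe40 fell by 1.0003 in controls and had -0.19 in the libraries labelled mutant (edgeR quasi-likelihood adjusted p 0.00011 and 0.278). Ciart, a clock repressor, had -0.72 and -1.48 (edgeR quasi-likelihood adjusted p 0.258 and 0.0269). The second call was lost without mutant replicate 2 of 8 days (0.103) or mutant replicate 1 of 3 months (0.0704). It rests on few reads, 16 to 68 at 8 days and 4 to 13 at 3 months in the libraries labelled mutant. The D-box activators Dbp, Tef and Hlf were lower, and the D-box repressor Nfil3 higher, in both cohort contrasts.

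Between genotypes none of these 13 passed at 8 days (edgeR quasi-likelihood test, smallest adjusted p 0.462, 2 unadjusted). At 3 months 3 passed, against 9.28% of all genes. Bhlhe40, an E-box repressor, stood at 37.7, 30.7, 36.8 and 46.5 CPM in the controls and at 64.3, 79.3, 80.5 and 103 CPM where labelled mutant, a log2 fold change of 1.11 (SE 0.16, edgeR quasi-likelihood adjusted p 0.00878). Its groups did not overlap. Its paralogue Bhlhe41 went the other way, at 3.45, 3.56, 3.65 and 3.90 CPM against 1.93, 1.89, 1.36 and 2.71 CPM (-0.89, SE 0.20, edgeR quasi-likelihood adjusted p 0.0296), a call lost without control replicate 1, 2 or 3 or mutant replicate 1 or 2 (adjusted p 0.0529 to 0.0791). The kinase gene Csnk1e rose by 0.26 (SE 0.06, edgeR quasi-likelihood adjusted p 0.0393), a call lost without any control, without mutant replicate 2, 3 or 4 (adjusted p 0.0545 to 0.101), with no filter on low counts (0.0655) and in the joint fit of both cohorts (0.0504). Of 7 clock output genes shared by many organs, 3 passed at 3 months, against the same 9.28%: Por rose by 1.20 (SE 0.12), Nampt fell by 0.56 (SE 0.09) and Usp2 fell by 0.84 (SE 0.20; edgeR quasi-likelihood adjusted p 0.00185, 0.00997 and 0.0347). The Usp2 call was lost without any control or without mutant replicate 1, 3 or 4 (adjusted p 0.0581 to 0.0888). With Rfx6f/f controls only, which leaves 2 controls, none of these 6 genes nor Cpt1a passed (edgeR quasi-likelihood adjusted p 0.0599 to 0.223), in a fit that called 0.205% of all genes. The log2 values there were 0.96 for Bhlhe40, -0.91 for Bhlhe41, 0.31 for Csnk1e, 1.12 for Por, -0.54 for Nampt, -0.96 for Usp2 and 0.57 for Cpt1a. Between the cohorts, 4 of the 7 output genes passed in controls, against 45.1% of all genes, and 3 in the libraries labelled mutant, against 37.8%, among them Leo1, which rose by 0.26 and by 0.36 (edgeR quasi-likelihood adjusted p 0.0223 and 0.00266). The first Leo1 call was lost without control replicate 1 of 8 days, without control replicate 3 of 3 months and with no filter on low counts (adjusted p 0.0984, 0.0704 and 0.0633).

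Per3, Tef, Dbp, Nr1d1 and Nr1d2 varied together in some pairs between animals of the same group. Over the 15 libraries with group means removed, 6 of 45 pairs had an adjusted p under 0.05 for Pearson's r (100000 permutations within groups), all positive, and 5 of them also for Spearman's rho. Per3 and Tef had r = 0.87 and rho = 0.88 (permutation test, adjusted p 0.0126 and 0.00405), and r = 0.74 without the 2 libraries farthest from the median. Nr1d1 and Nr1d2 had r = 0.89 and rho = 0.80 (permutation test, adjusted p 0.0126 and 0.0268), with r = 0.66 without those 2 libraries and 0.75 without mutant replicate 1 of 3 months. Dbp had r = 0.84 with Tef (rho 0.82), r = 0.83 with Per3 (rho 0.77) and r = 0.74 with Nr1d2 (rho 0.74; permutation test, adjusted p 0.0126, 0.0154 and 0.0154 for r, and 0.0279, 0.0412 and 0.0268 for rho). Per3 and Nr1d2 had r = 0.72 and rho = 0.69 (permutation test, adjusted p 0.0412 and 0.0739), with r = 0.48 without the 2 farthest libraries. The pairs of Dbp had r = 0.78 with Tef, 0.72 with Per3 and 0.74 with Nr1d2 without their 2 farthest libraries. Without mutant replicate 1 of 3 months, the 6 pairs had r of 0.69 to 0.84.

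No pair of opposite phase passed. Arntl and Dbp had r = -0.50, and Arntl and Nr1d1 had r = -0.29 (permutation test, adjusted p 0.252 and 0.481). Arntl and Cry1 had r = 0.69 and missed the threshold (permutation test, adjusted p 0.0796). Within a single cohort 0 of 45 pairs passed, with smallest adjusted p of 0.173 over 7 libraries and 0.13 over 8 (permutation test), but few permutations exist at these sizes and the adjustment covers 45 pairs. At 8 days and at 3 months r was 0.91 and 0.91 for Per3 with Tef, 0.92 and 0.81 for Dbp with Tef, 0.94 and 0.68 for Per3 with Dbp, 0.83 and 0.80 for Nr1d2 with Dbp, 0.89 and 0.79 for Per3 with Nr1d2, and 0.60 and 0.94 for Nr1d1 with Nr1d2. Without mutant replicate 1 of 3 months, the 3-month values in the same order were 0.81, 0.66, 0.39, 0.65, 0.41 and 0.84. Without the 2 libraries farthest from the median, r was 0.16 for Dbp with Tef at 3 months and -0.0978 for Nr1d1 with Nr1d2 at 8 days. The libraries share depth and scaling, and pairs share members, so the 45 tests are not independent.

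**Figure D5:**
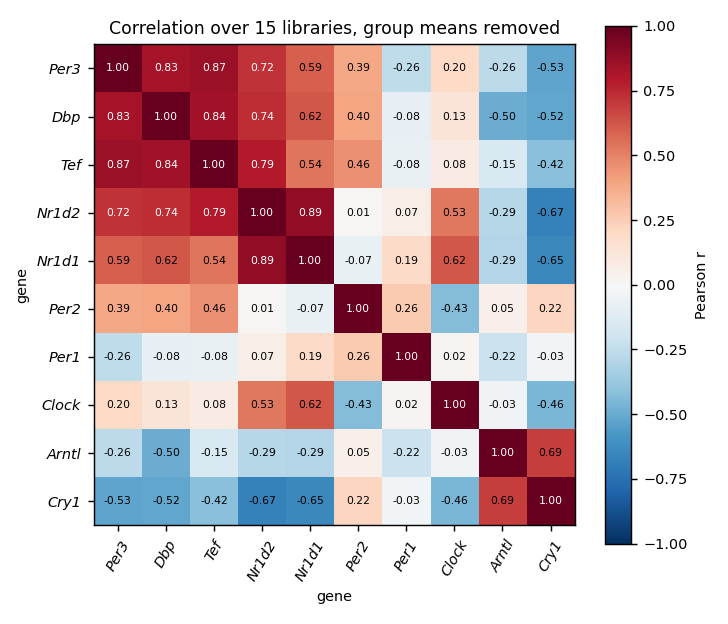
Pearson's r between the 10 clock genes over 15 libraries, on log2 CPM with the mean of each group removed (red positive, blue negative). Per3, Dbp, Tef, Nr1d2 and Nr1d1 form a block of positive values from 0.54 to 0.89. Arntl and Cry1 are positive with each other (0.69) and negative with that block. The values of Arntl with Per3 and Tef (-0.26 and -0.15) turned to 0.26 and 0.21 without the 2 farthest libraries. Within the cohorts they were -0.74 and -0.87 at 8 days, and 0.47 and 0.42 at 3 months. Those of Arntl with Nr1d1, Nr1d2 and Dbp stayed negative in these settings.

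As a description, the 13143 named genes whose log2 CPM averaged 1 or more, the 10 members left out, were ranked by r over the same 15 libraries. Those most like Dbp were Mau2 (0.87), Sspo (0.84), Lnx1 (0.80), Mtg2 (0.80) and Zmym6 (0.79). Those most like Arntl were Cldn23 (0.86), Pdlim2 (0.84), Dazap2 (0.84), Lsm12 (0.84) and Fbxo6 (0.82). The members Tef and Per3, at 0.84 and 0.83, would have stood among those most like Dbp. All r are across libraries that share depth and scaling.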

How the data were processed

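Total RNA from the ileum of 15 mice was sequenced. Per the labels' protocols the libraries were depleted of ribosomal RNA, but the molecule label is polyA RNA. RNA was extracted with either of 2 reagents, and which sample had which is not given in the sources used here. The deposited values are raw counts per Ensembl gene made by the authors, in 1 table per cohort. The tools bcl2fastq 2.17.1.14, Bowtie 1.0.0, TopHat2 2.0.10, Bowtie2 2.1.0 and HTSeq 0.6.1 and the build mm9 are named in the submitters' processing notes. The annotation and the strand handling are not given in the sources used here.

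Groups came from the genotype and time labels, and replicates were numbered in deposit order. Of 37620 identifiers, 32897 (87.45%) matched a symbol in GENCODE M21. Members and gene lists were chosen with earlier results of these data known. The rule for naming took the 10 members, allowed called genes of the 3 lists and genes of those lists whose groups did not overlap at a time point, and took the 5 genes most like Dbp and like Arntl. Angptl4, Txnip, Sgk1 and Fkbp5 were named after their values were seen. The result of 1 gene of the feeding list is not reported here.

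Genotypes were compared at each time by edgeR 4.0.16 in R 4.3.3, with filterByExpr (minimum count 10), TMM scaling and the quasi-likelihood F test in its legacy form, with Benjamini-Hochberg adjustment over all genes and a threshold of 0.05. The interaction and the cohort contrasts came from 1 model with 4 group means over the 15 libraries, and the control genotypes from a fit of the 8 libraries of 3 months. CPM use the TMM-scaled library size of all 15 libraries. Log2 CPM have a prior count of 2. Means carry their SD and fold changes their SE, and tests are two-sided. A count of 3 stood at 0.0551 to 0.115 CPM, for counting error only. Within each group all pairs of libraries differed beyond sampling noise (lowest chi-square per degree of freedom 12.1). Pair correlations used 100000 permutations within groups, adjusted over 45 pairs.

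Alternatives were DESeq2 1.42.0, limma-voom (limma 3.58.1), RLE scaling, TMM scaling that leaves out the 20 genes with most counts, other filters, robust empirical Bayes, a joint fit, a minimum absolute log2 change of 1, Rfx6f/f controls only, runs of title numbers as a block, other prior counts and gene sets of the phase differences, and each library left out. On simulated counts with 200 genes shifted by a log2 value of 2 (3 draws), edgeR recovered 90.3% of them at 8 days (17312 genes), 93.5% at 3 months (16899 genes), 89.2% in the cohort contrast of controls (17720 genes) and 93.0% in that of the libraries labelled mutant (17723 genes). Figures were drawn with matplotlib 3.10.9.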

Additional observations from a re-analysis of the deposited data

Results flagged for a closer look

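In groups of 4 libraries, a library was singled out where its gap to the nearest other one took up more of the range of the group than Dixon's 95% limit allows. Over the members and the clock and feeding lists 11 values from 6 libraries met this, against 6.6 by chance (1 in 20 checks). Among members, replicate 1 of the libraries labelled mutant at 3 months had 20.5 CPM of Nr1d1 (the others 2.50 to 4.97 CPM) and 62.9 CPM of Nr1d2 (22.8 to 28.2 CPM). Replicate 4 of the libraries labelled mutant at 8 days had 37.1 CPM of Nr1d1 (63.1 to 66.1 CPM), and control replicate 4 of 3 months had 24.4 CPM of Tef (16.7 to 17.7 CPM).

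Among the other genes, mutant replicate 1 of 3 months had 0.124 CPM of Ciart (0.34 to 0.352 CPM), 844 CPM of Txnip (541 to 576 CPM) and 111 CPM of Fkbp5 (17.8 to 32.8 CPM). The Ciart counts of this group were only 4 to 13 reads, near the floor of 3 counts. Thus 5 of the 11, with that Ciart value counted, came from this library. Mutant replicate 2 of 3 months had 13.9 CPM of Usp2 (7.41 to 8.42 CPM). At 8 days, mutant replicate 4 had 25.2 CPM of Csnk1e (28.5 to 28.7 CPM) and mutant replicate 1 had 73.8 CPM of Nampt (63.4 to 64.5 CPM). Control replicate 3 of 3 months had 521 CPM of Txnip (448 to 455 CPM).

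The genotype effect differed between the cohorts for genes outside the members. For Bhlhe41 the effect at 3 months less that at 8 days was -1.91 (SE 0.42, edgeR quasi-likelihood adjusted p 0.0497), from 1.005 at 8 days (adjusted p 0.47) to -0.89 at 3 months. That call was lost with limma-voom (adjusted p 0.0532) and without any of 11 single libraries (adjusted p 0.0553 to 0.135). For Por, the electron donor of cytochrome P450 enzymes, it was 0.95 (SE 0.16, edgeR quasi-likelihood adjusted p 0.0254), from 0.23 at 8 days to 1.20 at 3 months. That call was lost without any of 6 single libraries (adjusted p 0.0508 to 0.079).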

How the results depend on the processing

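The counts of 0 members called between genotypes and in the interaction held under every alternative run, as did the 8 called between cohorts in the libraries labelled mutant. The 8 called in controls ran from 6 to 9 with a library left out. DESeq2 called 1 member between the control genotypes (Per1), where edgeR called 0. The antiphase difference of the cohorts moved from -3.21 to -1.89 with Dbp, Nr1d1, Nr1d2, Per3 and Tef against Arntl, Clock and Npas2. The count of 6 correlated pairs was 0 within the 8-day cohort and 0 within the 3-month cohort, where 7 or 8 libraries can hardly pass over 45 pairs. There r of the 6 pairs was 0.60 to 0.94, and 0.39 to 0.84 at 3 months without mutant replicate 1. It was 28 with group means kept, where the cohorts form separate clusters. The cohort log2 changes of Nr1d1, Dbp, Tef, Per3, Nr1d2, Cry1 and Arntl kept their sign under all alternatives run.

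Genotype changes that turned sign passed the threshold under no setting. With 1 library left out, at 8 days Per3 ran from -0.19 to 0.19 and Tef from -0.001 to 0.35. At 3 months Arntl ran from -0.0827 to 0.0327, Per2 from -0.0666 to 0.33, Per3 from -0.0112 to 0.27, Cry1 from -0.0914 to 0.11, Nr1d1 from -0.0019 to 1.32, Nr1d2 from -0.11 to 0.51, Dbp from -0.33 to 0.15 and Tef from -0.19 to 0.30. For the interaction Per3 ran from -0.0787 to 0.35, Nr1d1 from -0.39 to 0.94, Nr1d2 from -0.43 to 0.22 and Tef from -0.45 to 0.10. Between cohorts in the libraries labelled mutant Per1 ran from -0.39 to 0.28 and Per2 from -0.39 to 0.0252. With Rfx6f/f controls only, Cry1 was -0.0254 and Tef -0.0357 at 3 months. With runs of title numbers as a block, Per3 was -0.13 at 8 days. With limma-voom the interaction of Nr1d2 was -0.0668. The cause of these changes was not tested beyond the loss of a library. No paired analysis was possible because the groups compared share at most 1 title number, and what those numbers or their runs mean is not in the labels.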
